A study of Mus musculus with 48 samples.

Results

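The villi labelled ileum from mice killed 9 days after gastric bypass or sham surgery gave 10 RNA-seq libraries, of 48 in the whole series. The members were chosen by the tissue, surgery and time in the sample labels. There were 5 libraries of the RYGB group (Roux en Y Gastric Bypass) and 5 of the sham group, with each library labelled as a sample of its own. All mice were male, of the strain C57Bl6, and diet-induced obese on a high fat diet. After surgery both groups received an elemental liquid diet, and the treatment label adds a return to high fat diet. They were fasted overnight and killed at 10am, and the villi were scraped off after cold EDTA, so the RNA came from epithelium with whatever lymphocytes and stroma came away with it. Age, body weight, the length of the limbs and the distance of the scraped stretch from the cecum or from the new junction are not in the labels. The labels do not say that the samples came from separate mice, so the p-values measure only the spread between these samples.

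In RYGB a small stomach pouch is joined to the jejunum, so food bypasses most of the stomach and the whole duodenum and meets bile further down. Enterocytes of the villi digest and take up peptides, amino acids, sugars and fat, and they package fat into chylomicrons. In the last part of the small intestine they also reclaim bile acids through the transporter Slc10a2 and the binding protein Fabp6. There the bile acid receptor FXR (gene Nr1h4) turns on Nr0b2, the export transporter Slc51a/Slc51b and the hormone Fgf15. T cells sit between the enterocytes as intraepithelial lymphocytes.

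Values are CPM as deposited, that is the reads of a gene scaled to a fixed library total, in the order of replicates 1 to 5. A log2 fold change is RYGB over sham on log2(CPM + 1), given ± its standard error (SE) from limma with n = 5 in each group, and it understates the change of genes with few CPM. A differentially expressed gene (DEG) had a Benjamini-Hochberg adjusted p under 0.05 over all genes tested and a fold change of at least 1.5. Where a gene is said to have lost its call without a library, its adjusted p or its fold no longer passed. The number of reads in a library is not known from the tables, so no counting interval was given, and the values are rounded to 0.1 CPM. The table lists genes with at least 1 CPM in 5 or more of the 10 libraries. CPM is not per length, so levels were compared between libraries and not between genes.

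The RYGB libraries were all run on lane 1, sham replicates 1 to 3 on lane 2 and sham replicates 4 and 5 on lane 3. Lane and surgery cannot be told apart, and no lane gives a value of its own. Markers of the distal ileum varied between libraries. Fabp6 had 41.5, 50.5, 47.4, 0.1 and 29 CPM in the RYGB group and 0, 11.2, 2.5, 22.9 and 0 CPM in the sham group. Slc10a2 had 5.6, 11.1, 53.7, 1.6 and 7.1 CPM and 0.2, 1.4, 1.4, 2.5 and 0.3 CPM. Gata4, a transcription factor of the proximal small intestine that is absent from the distal ileum, was between 105 and 183 CPM in all 10 libraries, and lactase (Lct) was between 3032 and 6704 CPM. Fabp6 was listed at 0 in 2 sham libraries. With Gata4 present in every library, they are called the villi labelled ileum. The first principal component, with 34.3% of the variance, put RYGB replicate 3 at 49, RYGB replicates 1 and 2 at 24.0 and 27.4, and RYGB replicates 4 and 5 at -4.98 and -9.35, next to or among the sham libraries (-32.2 to -5.74). The second component, with 28.8% of the variance, put RYGB replicates 4 and 5 at -26.2 and -38.8 and RYGB replicate 2 at -22.6. The sham libraries lay between 0.33 and 35.5 on it, and RYGB replicates 1 and 3, at 0.64 and 18.3, lay within that range. RYGB replicates 4 and 5 were the furthest from the sham range there. The RYGB group was also split in adenosine deaminase (Ada), a gene of the villus tip, with 1575, 1310.0, 1252, 211 and 75.3 CPM, against 1285, 905, 704, 577 and 927 CPM in the sham group. Transcripts of the mitochondrial genome took from 3.36% to 6.89% of the RYGB libraries and from 2.82% to 5.48% of the sham libraries.

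**Figure D1:**
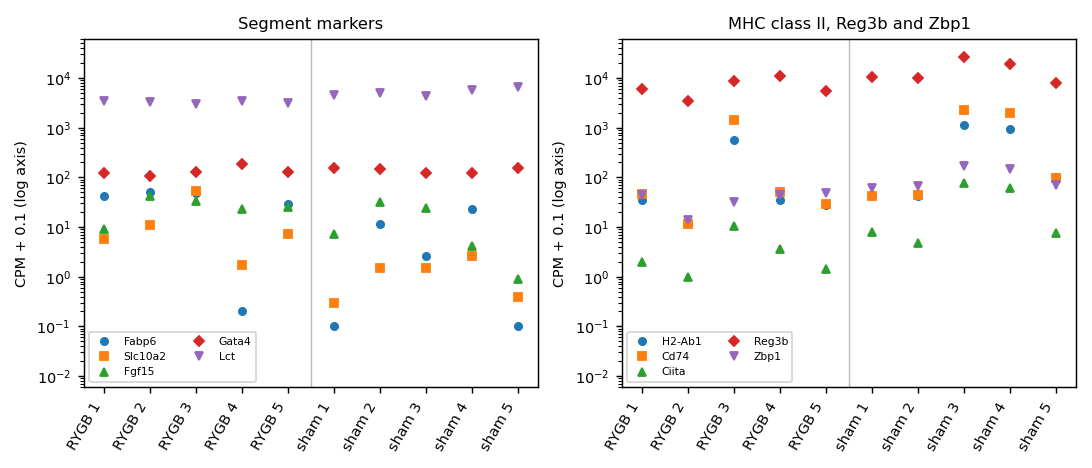
CPM + 0.1 (log axis) of 5 segment markers (left) and of MHC class II genes, Reg3b and Zbp1 (right) in each of the 10 libraries, RYGB to the left of the grey line and sham to the right. Fabp6 ranged from 0 to 50.5 CPM and Slc10a2 from 0.2 to 53.7 CPM, Gata4 stayed between 105 and 183 CPM, and H2-Ab1, Cd74 and Ciita were highest in RYGB replicate 3 and sham replicates 3 and 4.

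Of 10735 genes tested, 650 were DEGs (6.05%). In the RYGB group 176 were higher (1.64%) and 474 lower (4.42%). Of all genes tested, 260 (2.42%) had every RYGB library above every sham library and 743 (6.92%) had every RYGB library below. Of the DEGs, 475 had groups that did not overlap. A log2 fold change above 0 was found in 4125 of all genes tested and one below 0 in 6610. These counts, with the 1.64% higher and 4.42% lower, are the background for the counts of every list below. The balance of directions moved with the scaling. With CPM as deposited 27.1% of the DEGs were higher, and after each library was scaled by its median ratio 329 were higher and 372 lower (46.9% higher). Over all genes tested the median was -0.09 on the log2 scale as deposited and 0.00 after that scaling, and all 646 DEGs tested under both kept their direction. This shift is 0.10, so the sign of a list median nearer to 0 than that depends on the scaling. Against the sham libraries of lane 2 alone, with fewer samples, 48 genes were DEGs, and against those of lane 3 alone 1 gene was. All 625 DEGs tested in both of these fits kept their direction in both. These fits reuse libraries that made the calls, so a kept direction is little support and no test of lane. Leaving out 1 library gave from 312 to 766 DEGs. The count fell by more than 1.5 times when the library left out was RYGB replicate 2 (327) or sham replicate 1 (403), 3 (312), 4 (428) or 5 (385).

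The largest increase among genes whose groups did not overlap was that of Tm4sf4, a membrane protein of the tetraspanin-like L6 family that is made in intestine and liver. The gene lies on chromosome 3 from 57425314 to 57441677 (GRCm38, GENCODE M21). It had 294, 708, 1028, 311 and 650.3 CPM in the RYGB group and 36.9, 57.8, 49.3, 42.4 and 42.9 CPM in the sham group. Every RYGB library lay far above every sham library, with a log2 fold change of 3.53 ± 0.31 (adjusted p = 0.000319). Its relative Tm4sf20 rose as well, by 2.11 ± 0.33 on the log2 scale (adjusted p = 0.00729), from 258, 598, 358, 276 and 293 CPM in the sham group to 1829, 1019, 2997, 1423 and 864 CPM. Malic enzyme (Me1), which makes NADPH in the cytosol, had 24.2, 211, 19, 78.2 and 55.6 CPM and 2.7, 8.3, 5.8, 4.1 and 10.4 CPM, with RYGB replicate 2 the highest and the groups apart (3.02 ± 0.56, adjusted p = 0.0117). Acacb, the acetyl-CoA carboxylase whose product holds back fatty acid entry into mitochondria, went from 0.6, 1.0, 1.7, 1.4 and 1.8 CPM to 7.9, 5.1, 10.4, 12.2 and 10.0 CPM (2.12 ± 0.23, adjusted p = 0.00166). Gsta1, a glutathione transferase, rose by 2.65, the P450 Cyp4f16 by 2.33, the lysophospholipid acyltransferase Lpcat4 by 2.20, Fyb2 by 2.44 and Gm9817 by 2.79 (adjusted p from 0.00878 to 0.018). The rise of the transcription factor Mecom (2.45 ± 0.58, adjusted p = 0.0274) was greatest in RYGB replicate 2, with 5.8, 74.3, 8.9, 25.7 and 6.5 CPM in the RYGB group against 0.9 to 3.7 CPM. The Mecom call was lost without sham replicates 1, 3, 4 or 5 (adjusted p from 0.0563 to 0.0711). The carboxylesterases Ces2a and Ces2b complete the 12 and are described with their family.

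On the other side, carbonic anhydrase 2 (Car2, chromosome 3 from 14886273 to 14900770) fell the furthest. This enzyme interconverts carbon dioxide and bicarbonate in the cytosol. It had 6.2, 2.6, 5.3, 18.6 and 4.2 CPM in the RYGB group and 39.4, 47.1, 111, 67.1 and 60.2 CPM in the sham group. The highest RYGB library was below the lowest sham library (-3.15 ± 0.40, adjusted p = 0.00343). Ppm1n, a member of the PPM phosphatase family, was close to 0 in the RYGB group with 0.2, 0.1, 0.1, 0.2 and 0.6 CPM, and it had 5.2, 5.7, 6.8, 4.6 and 7.9 CPM in the sham group (-2.50 ± 0.17, adjusted p = 4.21e-05). No RYGB library reached 1 CPM, so the gene was listed and tested only through the sham group in which it is high, and it had to differ. Its RYGB values are too low to give a fold with any precision. The Nogo receptor relative Rtn4rl1 had 1.3, 0.7, 0.6, 5.3 and 3.7 CPM against 19.9, 16.1, 22.3, 6.5 and 30.2 CPM, groups that did not overlap (-2.67 ± 0.44, adjusted p = 0.00878). The apolipoprotein L gene Apol10a fell by 1.95 and the ubiquitin protease Usp35 fell by 1.94 on the log2 scale (adjusted p = 0.0145 and 0.00878). The other 7 genes of the 12, namely Cd36, Aqp1, Lrat, Gzma, Gzmb, Cd8a and Ccl5, belong to the groups that follow.

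**Figure D2:**
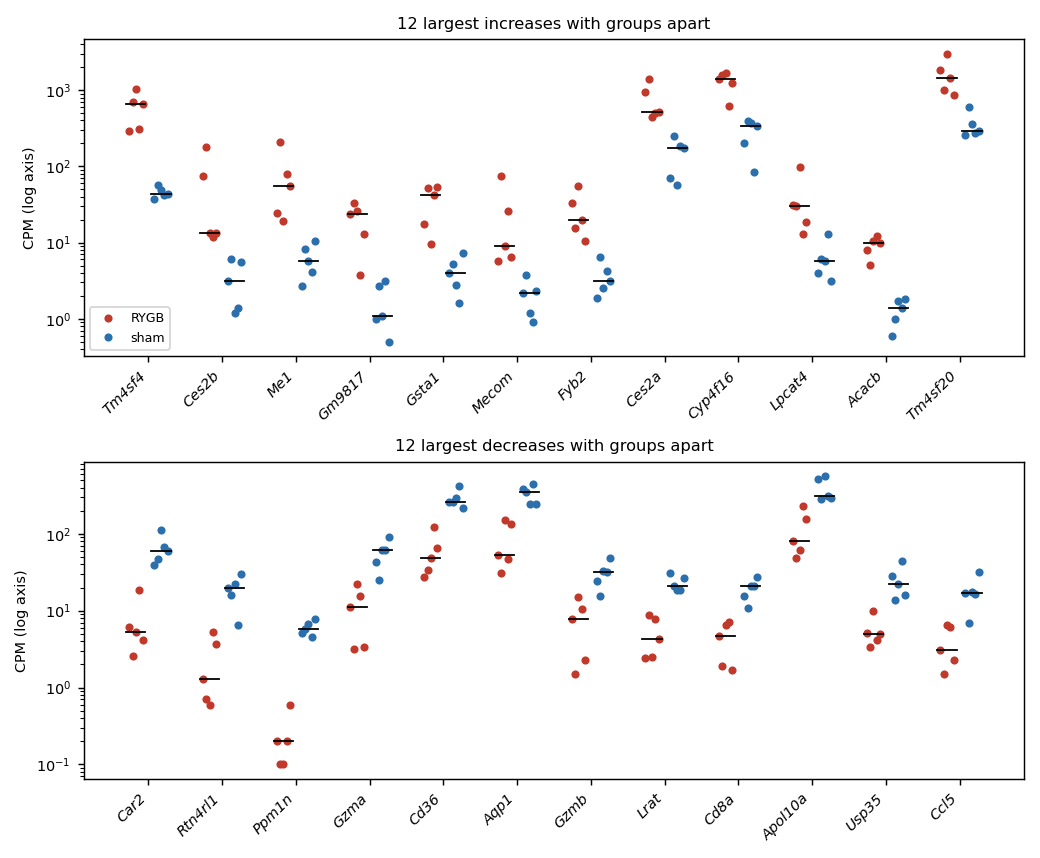
CPM (log axis) of the 12 largest increases (top) and 12 largest decreases (bottom) among DEGs whose groups did not overlap, 1 point for each of 5 RYGB and 5 sham libraries with a line at the median. Tm4sf4 was between 294 and 1028 CPM in the RYGB group and between 36.9 and 57.8 CPM in the sham group.

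Of 26 genes tested for the uptake of peptides and amino acids 9 were lower in the RYGB group, none was higher and 17 did not pass. Of the 26, 22 had a log2 fold change below 0. The median was -0.50, against -0.09 over all genes. Ace, a peptidase of the brush border, had 1884, 2352, 2355, 2864 and 2435 CPM in the RYGB group and 4936, 5494, 5087, 7187 and 6428 CPM in the sham group. The groups were far apart (-1.29 ± 0.17, adjusted p = 0.00343). The aromatic amino acid transporter Slc16a10 of the basolateral membrane had 186, 246, 204, 311 and 376 CPM and 629.5, 681, 815, 657 and 574 CPM, again without overlap (-1.38 ± 0.18, adjusted p = 0.00416). Its basolateral partner in neutral amino acid export, Slc7a8, had 168, 201, 187, 308 and 531 CPM against 613, 681, 712, 797 and 636 CPM (-1.43 ± 0.27, adjusted p = 0.0117), and RYGB replicate 5 lay nearest to the sham group. At the brush border the peptide transporter Slc15a1 (PEPT1) fell by 0.85 (adjusted p = 0.0212) and the neutral amino acid transporter Slc6a19 fell by 0.94 (adjusted p = 0.0392) on the log2 scale. Slc43a2 fell by 0.74 (adjusted p = 0.0176). The Slc15a1 call was lost without sham replicate 3 (adjusted p = 0.0546). The Slc43a2 call was lost without RYGB replicate 2 or sham replicate 3 (adjusted p from 0.0501 to 0.0518). The Slc6a19 call was lost without RYGB replicates 1, 2, 4 or 5 or sham replicates 1, 2, 3 or 4 (adjusted p from 0.0556 to 0.092). After median ratio scaling these 3 genes no longer passed the fold or p threshold, with log2 fold changes of -0.74, -0.63 and -0.84, and 6 members of the list fell. The count of members that fell was 5 without RYGB replicate 1 or 2, 6 without sham replicate 2 and 3 without sham replicate 3. The remaining 3 DEGs of the list were Slc6a20a, Slc6a20b and Slc7a15. Of the 9 DEGs of the list, 8 reached 1 CPM in all RYGB libraries. The call of the other, which is among these 3, is no support. Aminopeptidase N (Anpep, -0.51 ± 0.25, adjusted p = 0.21) did not pass the test.

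Of 32 genes tested for fatty acid oxidation and ketone bodies 10 rose, none fell and 22 did not pass. The median log2 fold change was 0.53, and 5 members were below 0. Cpt1a, which admits fatty acids to mitochondria, had 125, 214, 120.3, 137 and 176 CPM in the RYGB group and 58.7, 66.3, 60.8, 64.4 and 104 CPM in the sham group. The groups did not overlap, and sham replicate 5 was nearest to the RYGB libraries (1.11 ± 0.19, adjusted p = 0.00962). The carnitine carrier Slc25a20 had 136, 159, 127, 108 and 135 CPM against 76, 76.4, 74.5, 83.5 and 84.8 CPM (0.74 ± 0.11, adjusted p = 0.00631). The long-chain dehydrogenase Acadl had 187, 354, 212, 324 and 326 CPM against 59.4, 124, 105, 112 and 125 CPM (1.41 ± 0.23, adjusted p = 0.00878). In both genes every RYGB library was above every sham library. The thioesterase Acot1 rose by 1.96 ± 0.41 (adjusted p = 0.0172), at no more than 7.8 CPM. Its mean in the sham group was 0.6 CPM. Acot1 was thus tested only through the RYGB group in which it is high, and its call is no support. Hadha rose by 0.78 ± 0.17 (adjusted p = 0.0215). The Hadha call was lost without RYGB replicate 2 or sham replicate 1 (adjusted p from 0.0539 to 0.0576). Pdk4, the kinase that holds back pyruvate oxidation in fasting and a common companion of these genes, had a log2 fold change of -1.03 ± 0.36 (adjusted p = 0.0972) and did not pass. Acadvl, Acot2, Cpt2 and Etfb were DEGs too. The count of genes that rose was 4 without RYGB replicate 2, 5 without sham replicate 1 or 3, 6 without sham replicate 4, 15 without RYGB replicate 3 and 15 after median ratio scaling.

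Genes of fat uptake went in both directions. Of 31 genes tested, 2 fell and 2 rose, and the median was 0.27. The fatty acid receptor Cd36 (chromosome 5 from 17781690 to 17888801) had 27.4, 34, 47.9, 122 and 64.5 CPM in the RYGB group and 258, 262, 295, 415 and 219.9 CPM in the sham group. The groups were well apart (-2.44 ± 0.33, adjusted p = 0.00451). The cholesterol uptake receptor Npc1l1 had 1832, 1752, 1786, 1346 and 1303 CPM against 2573, 2653, 2901, 3947 and 2655 CPM, also without overlap (-0.87 ± 0.16, adjusted p = 0.0125), and after median ratio scaling it had a log2 fold change of -0.77 and was not a DEG. The intracellular fatty acid binding protein Fabp1 rose from 2284, 3029, 2636, 1190.0 and 3986 CPM in the sham group to 4105, 6855, 3773, 8462 and 7265 CPM (1.25 ± 0.33, adjusted p = 0.0391), with RYGB replicate 3 below sham replicate 5. Sar1b, a GTPase for chylomicron export, rose by 0.59 (adjusted p = 0.0299). The Fabp1 call was lost without RYGB replicates 2, 4 or 5 or sham replicates 1, 2, 3 or 4 (adjusted p from 0.0541 to 0.0906). The Sar1b call was lost without RYGB replicates 1, 2 or 3 or sham replicates 1, 3, 4 or 5 (adjusted p from 0.0487 to 0.0705). Its partners in chylomicron assembly did not pass the test, with log2 fold changes of 0.60 for Mttp, -0.31 for Apob and 0.42 for Apoa4 (adjusted p = 0.0912, 0.461 and 0.521). Fabp2 had 0.60 (adjusted p = 0.152).

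**Figure D3:**
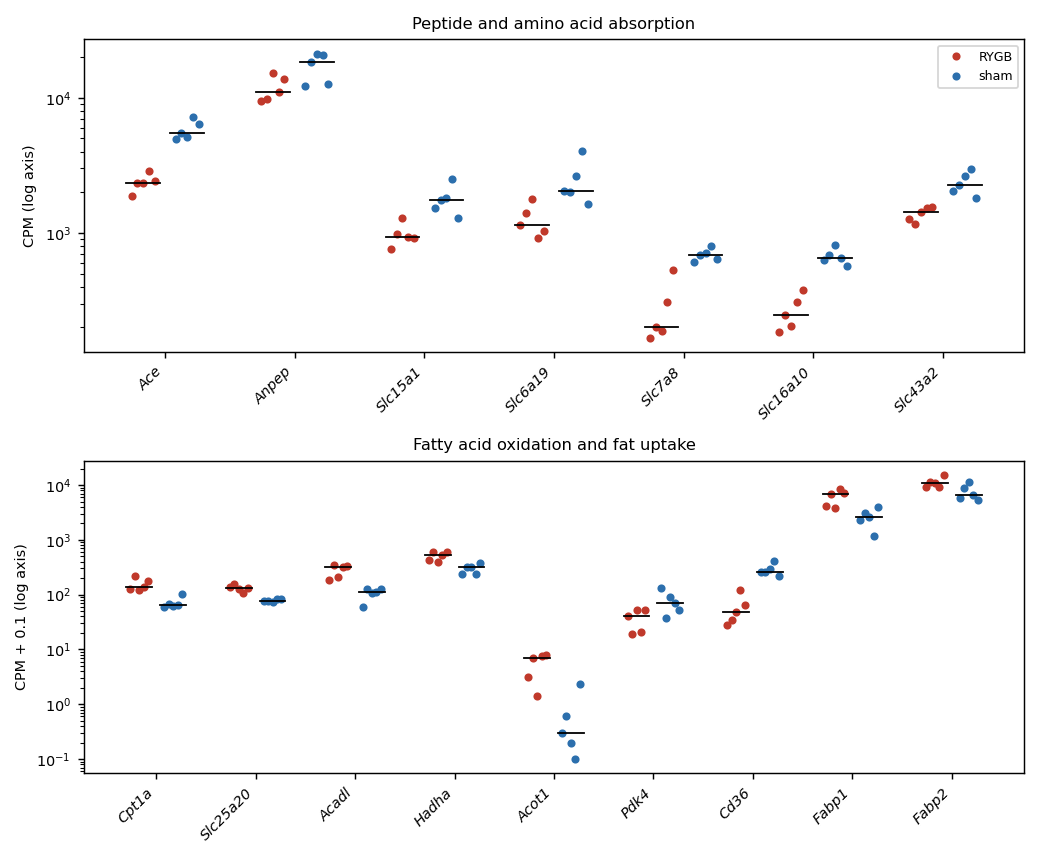
Peptide and amino acid genes (top, CPM, log axis) and fatty acid oxidation and fat uptake genes (bottom, CPM + 0.1, log axis), 1 point for each of 5 RYGB and 5 sham libraries with a line at the median. Ace and Slc16a10 were lower in every RYGB library, Cpt1a, Slc25a20 and Acadl higher, and Cd36 lower.

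Among 19 genes of sugar digestion and transport 1 rose and 2 fell (median 0.25). Lactase (Lct) had 3423, 3349, 3032, 3406 and 3121 CPM in the RYGB group and 4542, 4983, 4358, 5808 and 6704 CPM in the sham group. The RYGB libraries were close together and all below the sham libraries (-0.68 ± 0.16, adjusted p = 0.0261), and the call did not hold after median ratio scaling (-0.57). The gluconeogenic enzyme Pck1 fell from 302, 127, 362, 538 and 287 CPM to 51.2, 166, 34.8, 39.2 and 107 CPM, with RYGB replicate 2 above sham replicate 2 (-2.13 ± 0.45, adjusted p = 0.0174). Fbp1, another enzyme of gluconeogenesis, went up instead, by 1.66 ± 0.39 (adjusted p = 0.0262). The Lct call was lost without RYGB replicate 2 or sham replicate 5 (adjusted p from 0.0562 to 0.0587). The Fbp1 call was lost without RYGB replicates 1 or 2 or sham replicates 2 or 3 (adjusted p from 0.0504 to 0.0591). The glucose transporter Slc5a1 (SGLT1) had 0.58 and sucrase-isomaltase (Sis) 0.64 on the log2 scale, and neither passed (adjusted p = 0.0547 and 0.0818). Maltase-glucoamylase (Mgam) had 0.36 (adjusted p = 0.239).

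Bile acid genes, where they changed, were higher in the RYGB group. Of 15 tested, 4 rose and none fell, 13 had a log2 fold change above 0, and the median was 0.57. None of the 15 had groups that did not overlap. Slc10a2, whose values stand above, had a log2 fold change of 2.30 ± 0.64 (adjusted p = 0.0474), with RYGB replicate 3 at 53.7 CPM and RYGB replicate 4 within the sham range. Nr0b2 (SHP), the repressor that FXR induces, had 6.8, 9.9, 2.5, 6.0 and 12.1 CPM in the RYGB group and 0.9, 2.0, 1.4, 0.4 and 3.6 CPM in the sham group (1.65 ± 0.37, adjusted p = 0.0235). Only RYGB replicate 3 fell within the sham range. The basolateral exporters Abcc3 (1.22 ± 0.33, adjusted p = 0.0423) and Slc51b (0.74 ± 0.20, adjusted p = 0.0457) rose. The Slc10a2 call was lost without RYGB replicates 1, 2 or 5 or sham replicates 1, 2, 3, 4 or 5 (adjusted p from 0.0561 to 0.11). The Nr0b2 call was lost without RYGB replicate 2 or sham replicates 1, 3 or 4 (adjusted p from 0.0516 to 0.0623). The Abcc3 call was lost without RYGB replicates 1, 2 or 4 or sham replicates 1, 3 or 4 (adjusted p from 0.0694 to 0.0988). The Slc51b call was lost without RYGB replicates 1, 2, 3 or 4 or sham replicates 1, 3 or 5 (adjusted p from 0.0647 to 0.105). The list gave 0 DEGs without sham replicate 1 or 3, 1 without RYGB replicate 1 or 2 and 2 without sham replicate 5. After median ratio scaling 2 of the 4 calls held, those of Nr0b2 and Abcc3. Fgf15 had 9.1, 41.6, 33.1, 23.3 and 25 CPM against 7.1, 31.4, 24.5, 4.1 and 0.8 CPM, groups that overlapped widely (1.45 ± 0.69, adjusted p = 0.206). Fabp6 (2.35 ± 1.15, adjusted p = 0.216), Slc51a (0.52, adjusted p = 0.183) and the receptor Nr1h4 (0.57, adjusted p = 0.15) did not pass. Since Slc10a2 and Fabp6 mark position along the intestine, a different scraped stretch and a changed level in the same stretch cannot be told apart here.

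For Slc10a2 the stretch before the RefSeq start is shown because a searched motif occurs in it. It is given 5′ to 3′ on the strand of the gene (build GRCm38.p6, sequence from RefSeq), from 250 to 101 bases before the start. Capitals mark letters of the transcription factor HNF1 (GTTAAT, any base, then ATTAA), here on the opposite strand, starting 223 bases before the start. The letters occur in 0.0609% of 32851 promoters of 300 bases, on either strand, and in 0.0592% of those of tested genes.
Slc10a2 (chr8:5105388-5105537, minus strand): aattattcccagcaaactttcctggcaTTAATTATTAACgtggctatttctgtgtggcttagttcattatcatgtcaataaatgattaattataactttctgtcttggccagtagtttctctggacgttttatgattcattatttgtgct

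Cholesterol synthesis genes had a median log2 fold change of 0.39, with 21 of 24 above 0 and 2 DEGs, both higher. The demethylase Cyp51 had 33.5, 62.7, 48.9, 24.6 and 59.2 CPM in the RYGB group and 15.2, 30.2, 18.3, 5.7 and 11.7 CPM in the sham group (1.53 ± 0.37, adjusted p = 0.0299), with RYGB replicate 4 in the sham range. Srebf2, the transcription factor of the pathway, rose by 0.89 ± 0.22 (adjusted p = 0.0326). The Cyp51 call was lost without RYGB replicate 2 or sham replicates 1, 3 or 5 (adjusted p from 0.0547 to 0.0745). The Srebf2 call was lost without RYGB replicates 2, 3 or 5 or sham replicates 1, 3, 4 or 5 (adjusted p from 0.0516 to 0.0738). Among 14 genes of fatty acid synthesis 1 was a DEG, Me1, and the median was -0.07. The synthase Hmgcs1 of the cholesterol pathway (0.74, adjusted p = 0.09), Sqle (0.91, adjusted p = 0.095) and the LDL receptor (0.90, adjusted p = 0.173) did not pass.

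Among 34 genes of carbonic anhydrases, water and ion transport 3 fell and 1 rose (median -0.02). Besides Car2, the water channel Aqp1 had 53.2, 31.4, 152, 47.2 and 134 CPM in the RYGB group and 389, 354, 247, 447 and 247 CPM in the sham group, with no overlap (-2.22 ± 0.39, adjusted p = 0.0105). The bicarbonate transporter Slc4a7 fell by 0.81 (adjusted p = 0.0172) and the phosphate transporter Slc20a1 rose by 1.40 (adjusted p = 0.0425). The Slc20a1 call was lost without RYGB replicates 2, 3 or 4 or sham replicates 1, 2, 3 or 4 (adjusted p from 0.0501 to 0.102). The chloride channel Cftr had -1.03 ± 0.37 (adjusted p = 0.098). Of 24 genes for vitamins, iron and calcium 2 fell and 3 rose (median -0.05). Lrat, which esterifies vitamin A for storage and chylomicrons, had 2.4, 8.8, 2.5, 7.9 and 4.3 CPM in the RYGB group and 30.7, 21.2, 18.6, 18.8 and 26.5 CPM in the sham group. The groups were apart (-2.08 ± 0.30, adjusted p = 0.00607). Cubilin (Cubn), the receptor for vitamin B12 bound to intrinsic factor, had 546, 631, 531, 354 and 609.6 CPM against 1029, 1273, 806, 1687 and 1232 CPM, also apart (-1.16 ± 0.21, adjusted p = 0.0106). The metal binding Mt1 (1.83 ± 0.45, adjusted p = 0.0319), Dgkd (0.75, adjusted p = 0.035) and ferritin light chain Ftl1 (0.64, adjusted p = 0.0299) rose. The Mt1 call was lost without RYGB replicates 2 or 3 or sham replicates 1, 2, 4 or 5 (adjusted p from 0.0558 to 0.0764). The Dgkd call was lost without RYGB replicates 2 or 4 or sham replicates 1, 2, 3 or 5 (adjusted p from 0.0571 to 0.0862). The Ftl1 call was lost without RYGB replicates 1 or 2 or sham replicates 1, 3 or 4 (adjusted p from 0.0529 to 0.0811).

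Genes that handle foreign and reactive compounds were raised in part. Of 9 carboxylesterases tested 3 rose and none fell. These 3, Ces2a, Ces2b and Ces2c, are neighbours on the plus strand of chromosome 8, from 104734003 to 104741634, from 104831572 to 104840093 and from 104847068 to 104854483 (GRCm38, GENCODE M21). Their enzymes cleave esters, triglycerides among them. Ces2a had 943, 1389.5, 438, 499 and 513 CPM in the RYGB group and 71.4, 249, 57.8, 187 and 174 CPM in the sham group (2.41 ± 0.43, adjusted p = 0.0107). Ces2c had 636, 981, 481, 505 and 390.2 CPM against 137, 278, 106, 96.3 and 201 CPM (1.91 ± 0.31, adjusted p = 0.00878). Ces2b had 74.4, 181, 13.2, 12 and 13.2 CPM against 3.1, 6.1, 1.2, 1.4 and 5.5 CPM (3.03 ± 0.70, adjusted p = 0.0262). In all 3 genes RYGB replicate 2 was the highest and no sham library reached an RYGB library. The Ces2b call was lost without RYGB replicate 1 or sham replicates 1, 3 or 4 (adjusted p from 0.0537 to 0.0695). The copies are alike, and how reads shared between them were counted is not given in the sources used here, so the split between the 3 is uncertain. Of 25 targets of NRF2, the factor that answers oxidants, 4 rose and none fell (median 0.44), among them Gsta4 (1.79 ± 0.38, adjusted p = 0.0176), Akr1b8 (1.14 ± 0.21, adjusted p = 0.012) and Aldh3a2 (0.87 ± 0.19, adjusted p = 0.0196). The Gsta4 call was lost without RYGB replicate 2 or sham replicate 3 (adjusted p from 0.0501 to 0.0503). The Aldh3a2 call was lost without RYGB replicate 2 or sham replicate 3 (adjusted p from 0.0533 to 0.0567). The fourth was Gsta1. The list gave 8 DEGs without RYGB replicate 3 and 2 without RYGB replicate 2 or sham replicate 3. The textbook targets Gclc (0.88, adjusted p = 0.0512) and Nqo1 (0.34, adjusted p = 0.614) did not pass. Of 39 P450 and conjugation genes 2 rose and 2 fell (median 0.21). The electron donor Por rose by 1.15 ± 0.27 (adjusted p = 0.0261) and Cyp2j6 by 0.86 ± 0.21 (adjusted p = 0.0316), while Cyp27a1, a sterol hydroxylase, fell by 1.31 (adjusted p = 0.025) and Ugt2a3 fell by 1.03 (adjusted p = 0.0442). The Por call was lost without RYGB replicates 1 or 2 or sham replicates 1, 3 or 4 (adjusted p from 0.0508 to 0.0698). The Cyp2j6 call was lost without RYGB replicates 1 or 2 or sham replicates 1, 3, 4 or 5 (adjusted p from 0.055 to 0.0827). The Cyp27a1 call was lost without RYGB replicate 2 or sham replicates 1, 4 or 5 (adjusted p from 0.0522 to 0.0625). The Ugt2a3 call was lost without RYGB replicates 1, 2 or 3 or sham replicates 1, 2, 3, 4 or 5 (adjusted p from 0.0528 to 0.101). Cyp2c55 had 1.61 ± 0.56 (adjusted p = 0.0914).

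**Figure D4:**
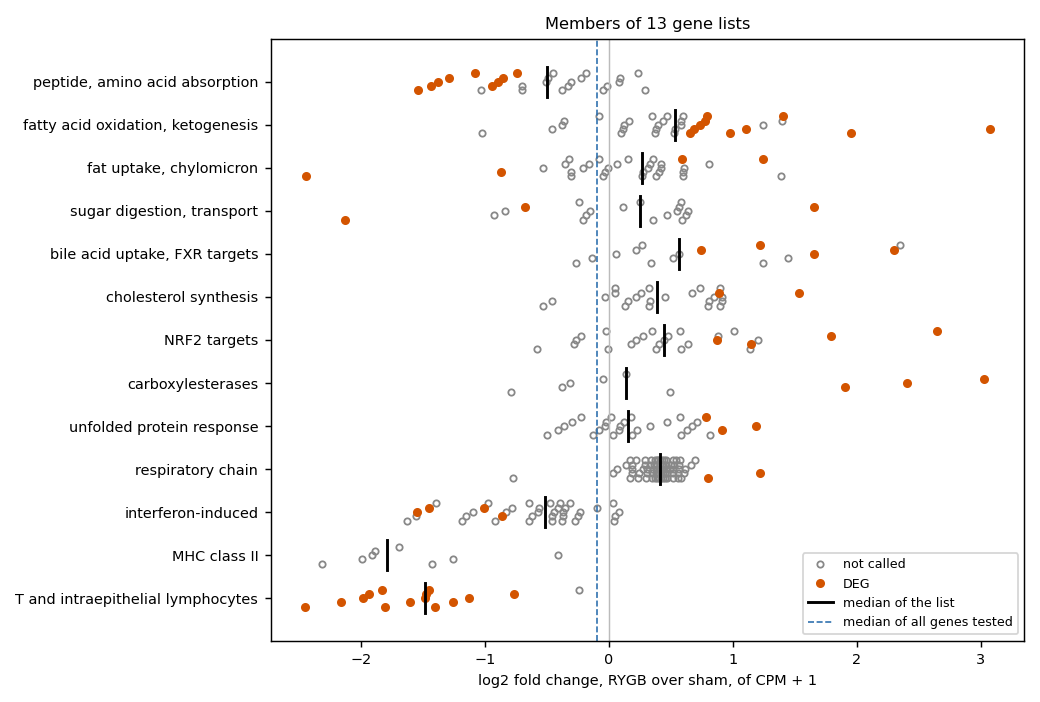
Log2 fold change (RYGB over sham, of CPM + 1) of each tested member of 13 gene lists, DEGs filled and other members open, with a bar at the median of each list and a dashed line at the median of all genes (-0.09). The respiratory chain had 76 of 77 members above 0 and 2 DEGs. The peptide and amino acid genes had 9 DEGs, all lower, and 8 of them reached 1 CPM in all RYGB libraries.

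Some markers of secretory cells were DEGs, as were 6.05% of all genes tested. Of 18 goblet cell markers 2 rose, Clca1 with 1570.1, 1989, 1581, 1413 and 1583 CPM in the RYGB group and 983, 1019, 978, 897 and 697 CPM in the sham group (0.83 ± 0.14, adjusted p = 0.00878) and Spink4 (0.75 ± 0.20, adjusted p = 0.0421). In Clca1 the groups were apart. The median of the goblet cell list was 0.04, with 11 members above 0 and 7 below. Its key genes Muc2 (0.08 ± 0.20, adjusted p = 0.842) and Tff3 (0.06 ± 0.13, adjusted p = 0.795) did not pass. All 10 tested Paneth cell markers had a log2 fold change above 0 (median 0.70) and 1 was a DEG, the lipase Pnliprp2 with 26, 54.1, 41.3, 13 and 10.1 CPM against 3.4, 7.9, 4.2, 4.0 and 6.9 CPM (2.05 ± 0.41, adjusted p = 0.0148). Lysozyme Lyz1 (0.99 ± 0.39, adjusted p = 0.132) and the defensin Defa24 (1.09 ± 0.32, adjusted p = 0.0557), which define the cell type better, did not pass. The summed Paneth markers were from 98.2 to 253 CPM in the RYGB group and from 37.8 to 90.8 CPM in the sham group. These sums include the DEG Pnliprp2, so their lack of overlap is no further support. In Lyz1 and Defa24 the groups overlapped. Defensins are near-identical copies, so their split is uncertain. Of 20 enteroendocrine markers 2 fell, somatostatin (Sst), which fell by 0.68 (adjusted p = 0.0274) and Vwa5b2 fell by 0.66 (adjusted p = 0.0325). The Spink4 call was lost without RYGB replicates 1, 2 or 5 or sham replicates 1, 3, 4 or 5 (adjusted p from 0.0599 to 0.0988). The Sst call was lost without RYGB replicates 2 or 5 or sham replicates 3, 4 or 5 (adjusted p from 0.0355 to 0.0698). The Vwa5b2 call was lost without RYGB replicates 1 or 2 or sham replicates 2, 3, 4 or 5 (adjusted p from 0.0601 to 0.0883). Neither was a DEG after median ratio scaling (-0.58 and -0.58). None of 12 tuft cell markers, 13 villus tip genes or 10 villus base genes was a DEG. Of 18 crypt and proliferation markers 1 was, the helicase Mcm4 (-0.61, adjusted p = 0.0391). The Mcm4 call was lost without RYGB replicates 1, 2 or 3 or sham replicates 1, 2, 3, 4 or 5 (adjusted p from 0.0556 to 0.0984). After median ratio scaling it had a log2 fold change of -0.53 and was not a DEG.

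Of 28 genes of the unfolded protein and integrated stress responses 3 rose and none fell (median 0.15). All 3 are chaperones or folding enzymes of the endoplasmic reticulum. Hspa5 (BiP) had 483, 554, 526, 1029.7 and 856 CPM in the RYGB group and 347, 397, 436, 456 and 299.7 CPM in the sham group (0.78 ± 0.21, adjusted p = 0.0446). Calreticulin (Calr) had 662, 865, 834, 985 and 1192 CPM against 389, 518, 584, 568 and 353 CPM (0.91 ± 0.19, adjusted p = 0.0153). Pdia6, a disulfide isomerase, had 46.8, 67.8, 68.3, 126 and 151 CPM against 34.9, 42.1, 49.4, 30.7 and 27.9 CPM (1.19 ± 0.29, adjusted p = 0.0301). RYGB replicates 4 and 5 were the highest in all 3, and Hspa5 and Calr were apart. The Hspa5 call was lost without RYGB replicates 2, 4 or 5 or sham replicates 1, 2, 3, 4 or 5 (adjusted p from 0.0593 to 0.103). The Pdia6 call was lost without RYGB replicate 2 or sham replicates 1, 4 or 5 (adjusted p from 0.0515 to 0.0735). After median ratio scaling 8 members rose. With RYGB replicate 1 or 3 left out the count was 7 or 6. It was 1 when RYGB replicate 2 or sham replicate 1, 4 or 5 was left out, and 2 for RYGB replicate 4 or sham replicate 2 or 3.

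The promoters of these 3 genes and of Acacb are shown because they share the endoplasmic reticulum stress response element. Capitals mark its 19 letters, which are CCAAT, then 9 bases of any kind, then CCACG, on either strand. They are given 5′ to 3′ on the strand of each gene (build GRCm38.p6, sequences from RefSeq), as stretches before the RefSeq start. The element began 65, 162, 98 and 87 bases before the start in Hspa5, Calr, Pdia6 and Acacb, and in Calr it lay on the opposite strand. For Hspa5 only 29 bases are given, since GENCODE M21 puts the first exon over them.
Hspa5 (chr2:34772020-34772048, plus strand): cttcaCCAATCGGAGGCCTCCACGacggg
Calr (chr8:84846962-84847111, minus strand): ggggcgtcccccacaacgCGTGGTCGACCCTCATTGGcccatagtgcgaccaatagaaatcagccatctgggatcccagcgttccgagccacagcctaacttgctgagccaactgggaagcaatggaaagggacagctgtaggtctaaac
Pdia6 (chr12:17266409-17266543, plus strand): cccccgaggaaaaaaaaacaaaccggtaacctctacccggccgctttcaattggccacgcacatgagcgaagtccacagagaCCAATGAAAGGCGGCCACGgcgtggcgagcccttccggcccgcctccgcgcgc
Acacb (chr5:114165338-114165487, plus strand): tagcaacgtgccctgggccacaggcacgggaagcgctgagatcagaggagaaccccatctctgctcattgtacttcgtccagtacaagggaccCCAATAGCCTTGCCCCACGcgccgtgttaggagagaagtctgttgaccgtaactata

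The element was found in 0.119% of the 32851 promoters and in 14 of the 8445 tested genes with an entry (0.166%). Of the DEGs with an entry, 4 of 133 that rose and 0 of 368 that fell held it. Of 24 genes of the stress response list with an entry 7 held it, the 3 DEGs and Hsp90b1, Creld2, Dnajc3 and Syvn1, which were not DEGs and had log2 fold changes of 0.67, 0.63, 0.18 and 0.12 (adjusted p = 0.0547, 0.0609, 0.373 and 0.663). A further 9 motifs were searched on both strands, from RefSeq windows of 250 bases before to 50 after a start. Their shares are given for all promoters, for the tested genes with an entry, for genes that rose and for genes that fell, in that order. The core of the antioxidant element, TGACNNNGC, was in 12.4%, 17.2%, 19.5% and 14.4%. The CDX letters TTTATGG were in 2.75%, 2.11%, 5.26% and 2.99%, and the sterol element letters CACCCCAC in 2.87%, 3.64%, 6.77% and 2.99%. For the E-box CACGTG the shares were 7.15%, 11.9%, 10.5% and 9.51%. For the cyclic AMP element TGACGTCA they were 1.79%, 3.68%, 2.26% and 2.45%. In both of these the DEGs lay below the tested genes. The HNF4 letters CAAAGTCCA occurred in 0.475%, 0.628%, 0.752% and 0.272%, and the GATA letters AGATAAG in 3.04%, 2.37%, 3.01% and 2.72%. Copies of AGGTCA with 1 base between them, as a direct repeat, were in 0.0396%, 0.0474%, 0.752% (1 gene) and 0%. As an inverted repeat they were in 0.00913% of all promoters. The inverted repeat, a form that FXR binds, was in 0 of the 8445 tested genes with an entry. No DEG could therefore hold it, and its absence from the DEGs says nothing about FXR. The antioxidant core and TGACGTCA can overlap. A match describes letters and is neither a site nor a cause.

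Markers of T cells and intraepithelial lymphocytes were lower in the RYGB group. In bulk villi, fewer cells of a type and less RNA per cell cannot be told apart. The invariant T cell receptor chain Cd3e had 1.9, 0.8, 2.0, 3.4 and 1.3 CPM in the RYGB group and 5.7, 4.5, 9.9, 7.7 and 10.9 CPM in the sham group. The co-receptor Cd8a had 4.7, 1.9, 6.5, 7.2 and 1.7 CPM against 15.5, 10.9, 21, 20.7 and 27.8 CPM. The granule protease Gzma had 11.1, 3.2, 22.2, 15.3 and 3.4 CPM against 42.6, 25, 61.8, 61.4 and 92 CPM. In these 3 genes every RYGB library was below every sham library, with log2 fold changes of -1.61 ± 0.27, -1.99 ± 0.34 and -2.45 ± 0.49 (adjusted p = 0.00878, 0.00962 and 0.0145). Gzmb fell by 2.16, the chemokine Ccl5 fell by 1.94 and Cd7 fell by 1.83 on the log2 scale (adjusted p = 0.0222, 0.0145 and 0.0113). The constant chains of the gamma T cell receptor Tcrg-C1 (-1.45, adjusted p = 0.00332) and Tcrg-C2 (-1.26, adjusted p = 0.00878) and Nkg7 (-1.41, adjusted p = 0.0126) fell too, at under 2 CPM in every RYGB library. The Gzmb call was lost without sham replicates 3 or 5 (adjusted p from 0.0565 to 0.0571). Of 29 members 15 were listed and tested, and 14 of those were DEGs, all lower. Only 6 of the 15 reached 1 CPM in all RYGB libraries, so the other 9 entered the test through the sham group and their count is no support. All 6 were DEGs. The DEGs not named above were Cd3g, Itgae, Lck, Klrd1 and Ccr9. The count was 12 to 14 with 1 library left out. The summed level of the list was from 17.9 to 75.1 CPM in the RYGB group and from 99.7 to 312 CPM in the sham group. Of 24 B and plasma cell markers 5 were tested, and of 25 macrophage, dendritic cell and neutrophil markers 6. Of 16 erythroid and pancreatic markers 1 was tested. None of these was a DEG. With so few tested this is near the share over all genes (6.05%), so it does not set T cells apart from other cells. Of 27 stroma markers 5 were tested and 1 fell, vimentin (Vim) with 1.4, 1.0, 1.5, 1.3 and 0.8 CPM against 2.1, 2.8, 3.4, 3.0 and 3.5 CPM (-0.85 ± 0.15, adjusted p = 0.0113), which lymphocytes also express.

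**Figure D5:**
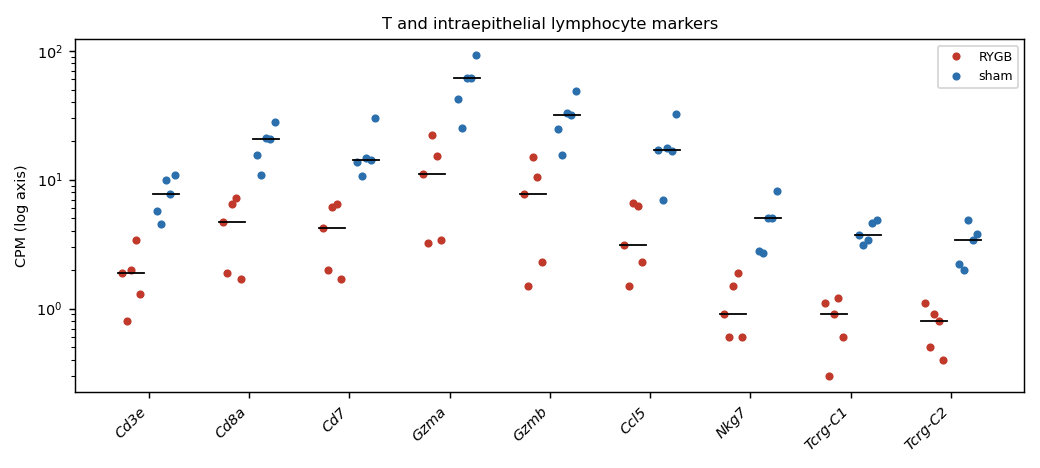
CPM (log axis) of 9 T and intraepithelial lymphocyte markers, 1 point for each of 5 RYGB and 5 sham libraries with a line at the median. Gzma was between 3.2 and 22.2 CPM in the RYGB group and between 25.0 and 92.0 CPM in the sham group.

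MHC class II genes were high in 3 libraries, 1 of the RYGB group and 2 of the sham group. H2-Ab1, a chain of the class II molecule, had 34.8, 12.1, 564, 34.8 and 28.2 CPM in the RYGB group and 44.1, 41.6, 1117, 923 and 104 CPM in the sham group. It was high in RYGB replicate 3 and in sham replicates 3 and 4, and the groups overlapped (-1.91 ± 1.13, adjusted p = 0.301). Cd74, the invariant chain, had 45.9, 11.6, 1403, 50.7 and 28.7 CPM and 42.7, 43.5, 2237, 2003 and 99.2 CPM, high in the same 3 libraries. The class II transactivator Ciita had 1.9, 0.9, 10.2, 3.6 and 1.3 CPM against 7.7, 4.6, 76.2, 60.5 and 7.6 CPM (-2.31 ± 0.75, adjusted p = 0.0769). None of the 8 class II genes tested was a DEG, though all 8 had a log2 fold change below 0 (median -1.79). Of 38 interferon-induced genes 4 fell, and 34 had a log2 fold change below 0 (median -0.52). The poly-ADP-ribose polymerase Parp14 had 196, 164, 226, 212 and 227 CPM in the RYGB group and 326, 322, 443, 471 and 324 CPM in the sham group, without overlap (-0.87 ± 0.14, adjusted p = 0.00878). Zbp1, a sensor of nucleic acids, had 44.6, 14.1, 32.1, 43.2 and 48.5 CPM against 62.1, 66.4, 168, 149 and 70.0 CPM (-1.45 ± 0.37, adjusted p = 0.0342). The GTPases Irgm2 (-1.55, adjusted p = 0.0439) and Gbp8 (-1.01, adjusted p = 0.0383) fell as well. Gbp8 had a mean of 0.84 CPM in the RYGB group, so it was tested through the sham group and its call is no support. The Zbp1 call was lost without RYGB replicates 2 or 3 or sham replicates 3, 4 or 5 (adjusted p from 0.0533 to 0.0843). The Irgm2 call was lost without RYGB replicates 1, 2 or 3 or sham replicates 1, 3, 4 or 5 (adjusted p from 0.0662 to 0.102). The Gbp8 call was lost without RYGB replicates 1, 2, 4 or 5 or sham replicates 3, 4 or 5 (adjusted p from 0.051 to 0.0946). The count of the list was 13 with RYGB replicate 5 left out, 2 with RYGB replicate 3 left out, and 1 with any of RYGB replicate 2 and sham replicates 3, 4 and 5 left out. After median ratio scaling Gbp8 had a log2 fold change of -0.95 and was not a DEG. The sham libraries with the highest class II genes, replicates 3 and 4, were also the highest in Zbp1.

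Antimicrobial genes did not pass the test apart from Zbp1, which is in both lists (1 of 21, median -0.39). The lectin Reg3b had 6134, 3378, 8850.0, 10923 and 5457 CPM in the RYGB group and 10433, 10225, 26129.5, 19401 and 8110.5 CPM in the sham group, highest in sham replicates 3 and 4 (-1.07 ± 0.38, adjusted p = 0.101). Reg3g had -0.98 ± 0.42 (adjusted p = 0.16). Reg3b and Reg3g are alike in sequence. The oxidase Duox2 had 1225, 4258, 2298, 1359 and 69.9 CPM against 273, 443, 265, 604 and 84 CPM, above the sham range in 4 of 5 RYGB libraries and below it in RYGB replicate 5 (1.89 ± 0.92, adjusted p = 0.212). Its maturation factor Duoxa2 had 2.36 ± 1.13 (adjusted p = 0.206).

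Of 16 circadian clock genes 2 fell and 1 rose, and 15 had a log2 fold change below 0 (median -0.43). Over all genes 6610 of 10735 were below 0. Cry2, a repressor of the clock, had 15, 16.3, 6.1, 6.8 and 14.8 CPM in the RYGB group and 25.1, 21.2, 29.6, 39.7 and 26.9 CPM in the sham group (-1.28 ± 0.27, adjusted p = 0.0182). The groups were apart in Cry2. Bhlhe40 rose by 0.98 ± 0.27 (adjusted p = 0.0446). The Cry2 call was lost without sham replicate 3 (adjusted p = 0.0513). The Bhlhe40 call was lost without RYGB replicates 1, 2 or 3 or sham replicates 2, 3, 4 or 5 (adjusted p from 0.0685 to 0.106). Of 20 repair genes and EGF ligands 2 rose, Tm4sf4 and epiregulin (Ereg, 1.10 ± 0.27, adjusted p = 0.0305). Amphiregulin (Areg) had 1.14 ± 0.41 (adjusted p = 0.105). Among 15 segment identity genes Slc10a2 rose and Onecut2, a transcription factor of the proximal intestine, fell from 11.9, 9.2, 15.2, 6.2 and 26.9 CPM to 4.7, 1.2, 1.4, 7.2 and 1.3 CPM (-1.91 ± 0.43, adjusted p = 0.0235). The Ereg call was lost without RYGB replicate 2 or sham replicates 1, 3, 4 or 5 (adjusted p from 0.055 to 0.0737). The Onecut2 call was lost without RYGB replicate 2 or sham replicates 1, 3 or 5 (adjusted p from 0.051 to 0.0621). Of 77 subunits of the respiratory chain and ATP synthase 76 had a log2 fold change above 0 (median 0.41) and 2 rose, Cox7a1 (1.22 ± 0.22, adjusted p = 0.011) and Ndufb6 (0.80 ± 0.20, adjusted p = 0.033). After median ratio scaling 19 rose, and 20 rose with RYGB replicate 3 left out. The count was 1 when RYGB replicate 2, 4 or 5 or sham replicate 1, 3 or 4 was left out. Of 60 ribosomal proteins 56 were above 0 (median 0.26) and 1 rose, Rps27l (0.72, adjusted p = 0.0358). The Ndufb6 call was lost without RYGB replicates 2, 4 or 5 or sham replicates 1, 3 or 4 (adjusted p from 0.0529 to 0.0824). The Rps27l call was lost without RYGB replicates 1, 2, 4 or 5 or sham replicates 1, 3, 4 or 5 (adjusted p from 0.0516 to 0.0755). None of 37 proteasome subunits was a DEG (median 0.32).

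The jejunum table of the same study held 3 RYGB and 4 sham libraries, normalized on its own, so its values are set beside those of the villi labelled ileum without a test between them. There 1058 of 10854 genes were DEGs (9.75%). Lane 1 of the jejunum held 2 RYGB and all 4 sham libraries. Car2 had a log2 fold change of -3.15 in the villi labelled ileum and -1.64 in the jejunum, Cd36 -2.44 and -3.85, Aqp1 -2.22 and -5.03, and Cubn -1.16 and -5.69. All 4 were DEGs in both. The lymphocyte genes Gzma (-2.45 and -2.22) and Cd8a (-1.99 and -1.88) were DEGs in both as well, and so were Ace (-1.29 and -1.31), Pck1 (-2.13 and -4.48), Tm4sf20 (2.11 and 1.97) and Lpcat4 (2.20 and 3.41). Ces2a had 2.41 and -1.08 (jejunum adjusted p = 0.479) and Me1 3.02 and -1.88 (jejunum adjusted p = 0.281). Duox2, not a DEG in the villi labelled ileum, had 5.31 in the jejunum (adjusted p = 0.000157), and Sqle had 4.61 (adjusted p = 0.000939). Reg3b had -1.07 in the villi labelled ileum and 1.67 in the jejunum (adjusted p = 0.0258). In the jejunum the Reg3b call was lost without RYGB replicates 2 or 3 or sham replicate 1 (adjusted p = 0.113, 0.073 and 0.0666), and the Ace call without any RYGB replicate or without sham replicates 1, 3 or 4 (adjusted p from 0.0515 to 0.0876).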

How the data were processed

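RNA-seq of 10 villus libraries was used. The submitters' processing notes name HTSeq and the build GRCm38, and the aligner and the strand setting of the counting are not given in the sources used here. The authors deposited CPM rounded to 0.1, with columns summing to 997791 to 998669, so the depth is unknown and the precision rests on 5 libraries a group. In the ileum file, 326 repeated lines were dropped. Genes whose mean reached 1 CPM were tested with limma 3.58.1 (R 4.3.3) on log2(CPM + 1), empirical Bayes with trend, two-sided, with Benjamini-Hochberg adjustment, and a DEG also needed a fold of 1.5. The fit was tested on simulated data. Named are the 12 largest increases and 12 largest decreases among DEGs whose groups did not overlap, and the key genes and up to 4 further DEGs of each of 34 lists. DEGs listed without a value and the lists of the closing section were chosen after their values were seen. Members and lists were chosen with earlier results of these data known. The alternatives were other pseudocounts, minima, scalings and limma settings, a replicate block, single sham lanes and leaving out each library. Some genes that the rule names are not reported here. Tables of other tissues were not used, apart from the jejunum. Gene positions are from GENCODE M21 and promoters from RefSeq.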

Additional observations from a re-analysis of the deposited data

Results flagged for a closer look

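Among 302 groups of 5 libraries, those of the genes described above, 7 held a library whose gap to the others took over 0.71 of the group's range, and chance alone flags about 1 in 20 groups. Ppm1n was at 0.6 CPM in RYGB replicate 5, against 0.1 to 0.2 CPM in the other RYGB libraries. Fabp6 was at 0.1 CPM in RYGB replicate 4, against 29.0 to 50.5 CPM. H2-Ab1 was at 563.7 CPM in RYGB replicate 3, against 12.1 to 34.8 CPM. In the sham group Npc1l1 was at 3947.3 CPM in replicate 4, against 2572.7 to 2901.1 CPM in the rest. Acadl was at 59.4 CPM in sham replicate 1, against 105.4 to 125.3 CPM. Sham replicate 5 had 104.4 CPM of Cpt1a against 58.7 to 66.3 CPM, and 101.1 CPM of Dnajc3 against 126.1 to 137.7 CPM. None of the 149 named genes listed in both tissues had groups apart in opposite directions in the villi labelled ileum and the jejunum. Over all genes in both, 4 of 10513 were apart in opposite directions, so 0 of 149 is near that share. Nr0b2 was a DEG in both with opposite directions (1.65, and -2.25 in the jejunum, adjusted p = 0.0122). Its groups overlapped in the villi labelled ileum.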

How the results depend on the processing

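Every DEG that could be tested kept its direction under each alternative. The alternatives reuse the libraries that made the calls, so a kept direction is little support. The count of DEGs was 390 with a pseudocount of 5 (255 lower), 333 with a mean of at least 10 CPM (205 lower), 48 against sham lane 2 alone (16 higher and 32 lower) and 1 against sham lane 3 alone (0 higher and 1 lower; 1356 genes at an unadjusted p under 0.05). Median ratio scaling gave 329 higher. With 1 library left out there were 312 to 766 DEGs, 83 to 242 of them higher and 228 to 586 lower, and the count fell by over 1.5 times without RYGB replicate 2 or sham replicate 1, 3, 4 or 5. With the replicate number as a block there were 580 DEGs, 508 of them among the 650. The numbers were not shown to pair samples, since the correlations of same-numbered deviations were 0.20, 0.06, 0.18, -0.28 and 0.28. Of 113 named DEGs 62 were called with any 1 library left out. The genes Ada, Nt5e, Slc28a2 and Gata4, which were not DEGs, changed direction. Their log2 fold changes with 1 library left out ran from -1.07 to 0.020 (without RYGB replicate 5), from -0.86 to 0.56 (0.15 without RYGB replicate 4), from -0.62 to 0.65 (0.19 without RYGB replicate 4) and from -0.20 to 0.0015 (without RYGB replicate 2). Library weights gave 0.57 for Nt5e and 0.47 for Slc28a2, and median ratio scaling 0.027 for Gata4. The cause was not tested. Rounding to 0.1 CPM limits genes near 1 CPM, and lane cannot be told apart from surgery.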

Other observations

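The lists in this section were written after the changed genes were seen, so their counts describe and support nothing further. Of 18 glycolysis genes tested 5 rose, none fell and 13 did not pass, and the median log2 fold change was 0.55. Lactate dehydrogenase Ldha had 1401, 1894, 1210.1, 1502 and 1025 CPM in the RYGB group and 847, 814, 716, 642 and 783 CPM in the sham group (0.86, adjusted p = 0.0125). The groups did not overlap, and the same was seen for the aldolase Aldoa (0.97, adjusted p = 0.0145) and the kinase Pgk1 (0.85, adjusted p = 0.0216). Of 20 hypoxia-inducible genes 5 rose and none fell (median 0.18), and 13 had a log2 fold change above 0 and 7 below. Ndrg1 (-1.44, adjusted p = 0.0597), Vegfa (-0.61, adjusted p = 0.0788) and Kdm3a (-0.51, adjusted p = 0.0452, short of the fold threshold) were below 0. The list thus went both ways. The oxygen-dependent prolyl hydroxylase Egln3 had 90.7, 396, 137, 195 and 96.7 CPM against 49.9, 49.6, 47.6, 56.5 and 43.8 CPM, with RYGB replicate 2 the highest and the groups apart (1.64, adjusted p = 0.0145). Fam162a rose by 1.47 and the glycogen branching enzyme Gbe1 by 1.16 (adjusted p = 0.0145 and 0.0151). Of 37 genes of N-glycosylation 6 rose and none fell (median 0.39), led by Gfpt1, the first enzyme of the hexosamine pathway, with 698, 408, 772, 579 and 453 CPM against 292, 296, 255, 261 and 229.7 CPM (1.09, adjusted p = 0.00878). The Pgk1 call was lost without RYGB replicate 2 or sham replicate 3 (adjusted p from 0.057 to 0.0601).

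Targets of the FOXO transcription factors, which are active in fasting, were lower where they changed. Of 20 tested 6 fell and none rose, 19 had a log2 fold change below 0, and the median was -0.63. Arrdc3 fell by 1.5 (adjusted p = 0.00708) and Klhl24 fell by 1.19 (adjusted p = 0.0162) on the log2 scale, and Pck1, in this list too, is given above. Of 19 genes of retinoid metabolism 4 fell and none rose (median -0.34). The retinol dehydrogenase Rdh16 had 12.8, 18.0, 13, 13.6 and 7.9 CPM in the RYGB group and 38.2, 23.4, 50, 46.9 and 24.2 CPM in the sham group, without overlap (-1.39, adjusted p = 0.011). Its copy Rdh16f2 had a log2 fold change of -1.43 (adjusted p = 0.0174), and reads shared by these copies make the split uncertain. Of 6 butyrophilin-like genes 4 fell, Btnl4, Btnl6 and the pseudogenes Btnl5-ps and Btnl7-ps, and Btnl1 (-0.25, adjusted p = 0.122) and Btnl2 (-0.33, adjusted p = 0.0614) did not pass. Products of this family in enterocytes act on intraepithelial gamma delta T cells, and the genes are alike in sequence. Btnl4 had 130.4, 87.5, 92.7, 125 and 94.9 CPM against 188, 164, 184, 179 and 168 CPM, again without overlap (-0.75, adjusted p = 0.00893). Btnl6 had a log2 fold change of -0.60 (adjusted p = 0.0234), and its call was lost without RYGB replicate 2 or 3 or sham replicate 1, 2 or 4 (adjusted p from 0.0338 to 0.0625) and after median ratio scaling (-0.49).

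The key genes of the villus tip list, Ada, Nt5e and Slc28a2, were split within the RYGB group. Ada is given above. It was followed by the ectonucleotidase Nt5e with 361, 448, 127, 26.5 and 7.8 CPM in the RYGB group and 78.5 to 175 CPM in the sham group. The nucleoside transporter Slc28a2 had 617, 514, 477, 64.5 and 17.6 CPM, against 146 to 299 CPM. RYGB replicates 1 to 3 were high and RYGB replicates 4 and 5 low in all 3 genes, and none of them was a DEG (adjusted p = 0.591, 0.876 and 0.918 for Ada, Nt5e and Slc28a2).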
